A study of Mus musculus with 12 samples.

Results

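Macrophage and myeloid genes were followed in cultures of mouse trigeminal ganglion (TG) neurons. The set holds 34 genes listed by name, from the growth factor receptor and transcription factors of macrophages to their Fc receptors, oxidase subunits and lysosomal proteins. All 34 had 1 probe each among the 19572 probes of the array that carry a gene symbol. The cells were plated on laminin as a primary culture and transfected with scramble miRNAs or with miR-34a, miR-21 or miR-324. Each group had 3 arrays, 12 in all. The labels give neither the strain, age or sex of the mice, nor the time after transfection, nor the arm of each miRNA. Nor do they tie an array to a culture or a mouse of its own, so every p-value here rests on the spread among these samples alone, and part of that spread may be technical. The series title places the work in neural reprogramming by head and neck cancer, and the design sets each miRNA against scramble.

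Macrophages are phagocytes that live in nearly every tissue, sensory ganglia and peripheral nerve included, and more enter a nerve after injury. Their survival depends on the receptor Csf1r, and their identity on the transcription factor PU.1, the product of Spi1, which binds purine-rich DNA in many myeloid promoters. Surface receptors such as Trem2 and the activating Fc receptors signal through the small adaptors Tyrobp and Fcer1g. Neutrophils and monocytes share many of these genes, and a culture of dissociated ganglia can carry such cells beside neurons and glia.

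The transfected miRNAs are shown with the bases they pair through, the seed at positions 2 to 8, in capitals. Sequences are the mature miRNAs of RefSeq on GRCm38.p6, and both arms are given for miR-324.
mmu-miR-21a-5p: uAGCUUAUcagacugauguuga
mmu-miR-34a-5p: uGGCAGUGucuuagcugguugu
mmu-miR-324-5p: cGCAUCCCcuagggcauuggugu
mmu-miR-324-3p: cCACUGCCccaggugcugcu

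Signals are log2 values after robust multi-array average (RMA) processing, so a difference of 1 is a 2-fold difference. The number of arrays limits the precision. The median of all probes was 5.91 to 6.06 in the 12 arrays. A floor was set in each array at the 95th percentile of 1414 probes for olfactory and vomeronasal receptors, genes of nasal sensory neurons, and it lay between 4.87 and 5.80. The labels of scramble 1 and 2 and of miR-34a 1 and 2 end in a shared suffix, here suffix A. Those of scramble 3 and miR-324 2 share another, suffix B, and the remaining 6 labels have none. The labels do not say what the suffixes stand for. Macrophage genes stood apart in the 4 suffix A arrays, so the comparisons between groups are also given without those arrays.

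Macrophage and myeloid genes were high in the 4 suffix A arrays and low in the other 8. Both levels were seen within scramble and within miR-34a. No miR-21 or miR-324 array has suffix A, so for those groups the suffix and the miRNA cannot be told apart. The median signal of the 34 genes was 8.21 and 8.25 in scramble 1 and 2 and 8.02 and 8.26 in miR-34a 1 and 2. It was 5.31 in scramble 3, 5.11 in miR-34a 3, 5.54, 5.50 and 6.00 in miR-21 1, 2 and 3, and 5.12, 4.86 and 5.20 in miR-324 1, 2 and 4. In the suffix A arrays 31 to 33 of the 34 genes lay above the floor, against 10 to 24 in the others. Scramble 3 and miR-34a 3, from the same groups as the suffix A arrays, were as low as the rest. For 27 of the 34 genes (79.4%) all 4 suffix A arrays lay above all 8 others, a pattern shared by 6.63% of all named probes. These are bulk cultures, in which fewer cells of a type and less RNA per cell cannot be told apart.

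**Figure D1:**
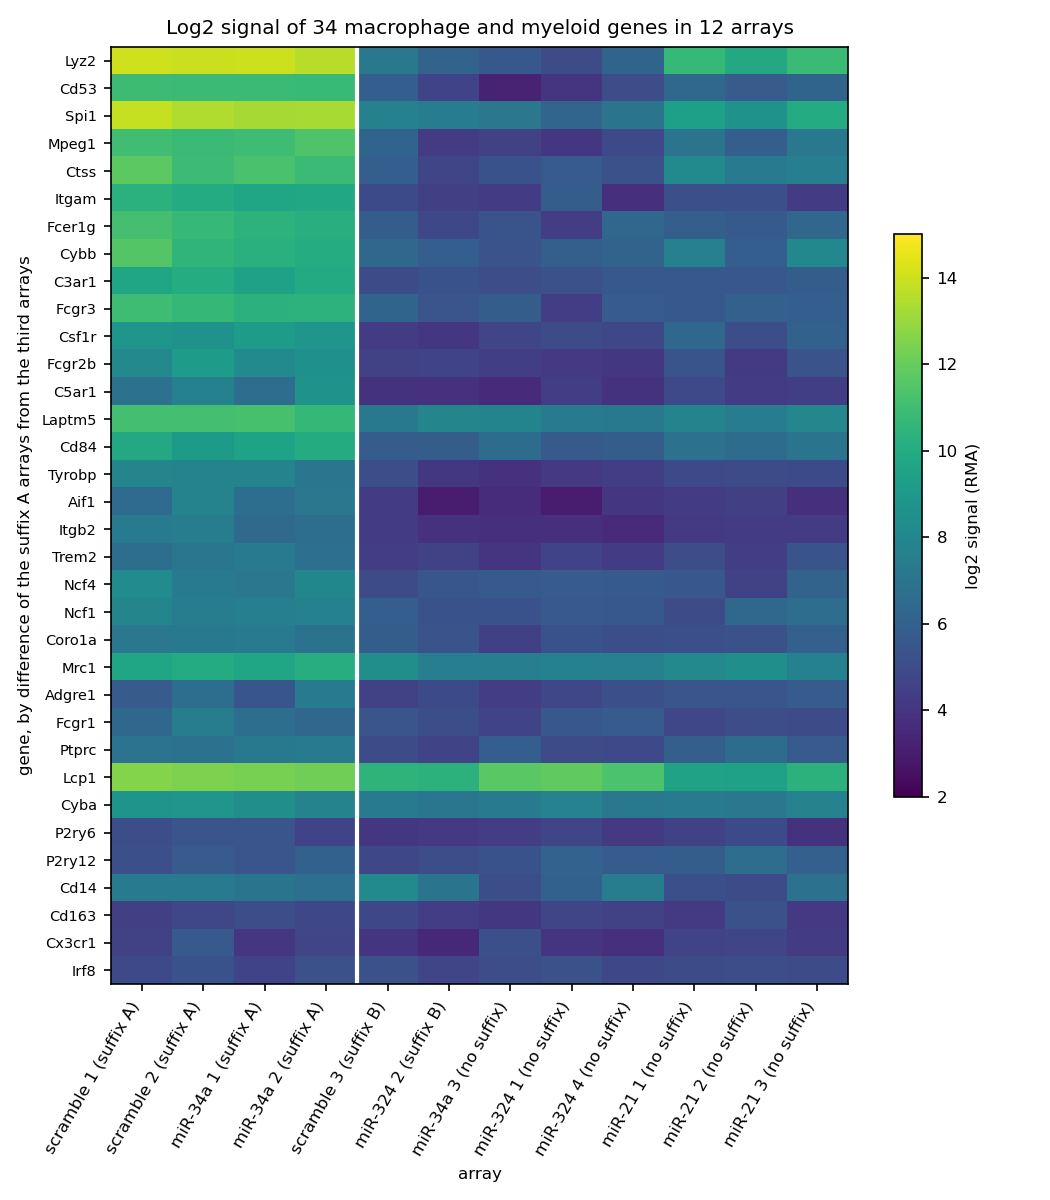
Log2 signal (RMA) of the 34 genes (rows, ordered by the difference of the suffix A arrays from the third arrays) in the 12 arrays (columns). The 4 suffix A arrays left of the white line are brighter for 27 genes than every array to its right; Irf8, Cx3cr1 and Cd163 at the bottom are dim throughout.

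The difference was tested by setting the suffix A arrays of scramble and of miR-34a against the third array of the same group, in a fit of all 12 arrays with 1 mean for each of 7 combinations of group and suffix. The third arrays are 1 for each group, so their own spread was not measured and is taken as that of the combinations with more arrays; the standard errors and adjusted p-values rest on this. Of the 34 genes 28 were higher in the suffix A arrays and 0 lower, at an adjusted p under 0.05, where 8.12% of all 19572 named probes were higher and 4.22% lower (12.3% in all). The arrays did not overlap, with suffix A higher, for 29 of the 34 genes and for 15.4% of probes, and lower for 0 and 16.6%. As measured, the 28 differences ran from 2.07-fold to 185-fold with a median of 11.0-fold. For 10 of the 28 genes both of the third arrays lay under the floor, for 8 genes 1 of them did and for 10 neither. With values under the floor held at the floor, the differences ran from 2.06-fold to 185-fold with a median of 7.34-fold, and 14 were at least 8-fold. Where both of the third arrays were under the floor the fold below is this lower bound, written as at least, and the log2 difference and its p are those of the measured values. The median difference of the 34 genes was 3.04 on the log2 scale, against −0.08 for all named probes. Across all probes 1589 were higher and 825 lower, or 1378 and 1118 after centring each array. Leaving out each of the 6 arrays in turn left 22 to 28 of the 34 genes called, and 20 passed in all 6 fits.

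Among the genes that define the lineage, the receptor for the macrophage growth factors, Csf1r, stood at 8.76 and 8.64 in scramble 1 and 2 and at 9.20 and 8.79 in miR-34a 1 and 2. It read 4.24 in scramble 3, 4.74 in miR-34a 3, 6.39, 5.11 and 6.05 in miR-21 1, 2 and 3, and 5.03, 4.05 and 4.80 in miR-324 1, 2 and 4. The suffix A arrays did not overlap the rest, and the miR-21 arrays were next, with miR-21 2 just above miR-324 1. Csf1r was at least 11.9-fold higher in suffix A, both of the third arrays being under the floor (log2 difference 4.36 ± 0.33, SE; adjusted p = 5.0e-06). Aif1, the calcium-binding protein Iba1 of macrophages, was at least 3.44-fold higher (3.09 ± 0.39; adjusted p = 2.9e-04), and lay under the floor in all 8 other arrays. Adgre1, the macrophage antigen F4/80, and Ptprc, the leukocyte antigen CD45, were higher too. The bound for Adgre1 was at least 2.06-fold (1.86; adjusted p = 0.016), and Ptprc was 3.22-fold higher, or 2.99-fold with scramble 3 held at the floor (1.69; adjusted p = 0.0013). Adgre1 did not pass without scramble 2, scramble 3 or miR-34a 3 (adjusted p up to 0.19), and miR-34a 1 read 5.46 for it, below miR-21 3 at 5.73.

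Spi1, which encodes PU.1, lay above the floor in all 12 arrays, at 13.85 and 13.44 in scramble 1 and 2 and at 13.23 and 13.32 in miR-34a 1 and 2. The other arrays read 7.73 in scramble 3, 7.14 in miR-34a 3, 9.35, 8.62 and 10.00 in miR-21 1, 2 and 3, and 6.22, 7.50 and 6.98 in miR-324 1, 2 and 4. The arrays fell into 3 levels, with suffix A highest, miR-21 between and the 5 remaining arrays lowest, without overlap. The difference of suffix A from the third arrays was 6.03 ± 0.36, or 65.1-fold (adjusted p = 1.0e-06). Irf8, a partner of PU.1 in monocytes, microglia and dendritic cells, showed none of this and read 4.61 to 5.26 in all 12 arrays, at or near the floor (−0.16 ± 0.26; adjusted p = 0.78).

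Tyrobp and Fcer1g, the adaptors of the set with immunoreceptor tyrosine-based activation motifs, were higher in suffix A, as were Trem2 and the Fc receptors. Fcer1g, the common gamma chain of Fc receptors, stood at 11.17, 10.72, 10.40 and 10.19 in scramble 1 and 2 and miR-34a 1 and 2. It read 5.82 in scramble 3, 5.39 in miR-34a 3, 5.94, 5.70 and 6.27 in miR-21 1, 2 and 3, and 4.37, 4.81 and 6.27 in miR-324 1, 2 and 4, a difference of 32.3-fold (5.02 ± 0.42; adjusted p = 1.0e-05). Here the miR-21 arrays overlapped the others. Tyrobp, the adaptor DAP12, was at least 5.25-fold higher (3.18 ± 0.25; adjusted p = 6.7e-06) and Trem2, a lipid-sensing receptor that pairs with it, at least 3.26-fold (2.81 ± 0.30; adjusted p = 8.2e-05). Of the Fc receptors, Fcgr3, which binds antibody in complexes, read 10.98, 10.68, 10.33 and 10.38 in the suffix A arrays (scramble 1 and 2, then miR-34a 1 and 2). It read 6.17 in scramble 3, 5.83 in miR-34a 3, 5.56, 6.00 and 5.86 in miR-21 1, 2 and 3, and 4.37, 5.44 and 5.74 in miR-324 1, 2 and 4. Fcgr3 was 24.1-fold, the inhibitory Fcgr2b at least 9.44-fold and the high-affinity Fcgr1 3.30-fold higher (adjusted p = 4.2e-06, 2.0e-05 and 0.0026; Fcgr1 2.60-fold with miR-34a 3 held at the floor), though Fcgr1 did not pass without miR-34a 3 (adjusted p = 0.068). Fcgr2b and Fcgr3 are close relatives with similar extracellular parts, and the sharing of probe sequence between them was not tested.

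The beta2 integrin CD11b/CD18, which binds complement-coated particles, followed the same split. Itgam, the CD11b chain, read 10.30, 10.00, 9.63 and 9.73 in scramble 1 and 2 and miR-34a 1 and 2 against 4.94 in scramble 3 and 4.31 in miR-34a 3. The miR-21 arrays gave 5.17, 5.16 and 4.29 and the miR-324 arrays 5.81, 4.44 and 3.75. All 8 were below suffix A, and the difference from the third arrays, both under the floor, was at least 25.0-fold (5.29 ± 0.46; adjusted p = 1.5e-05). Itgb2, the CD18 chain, was at least 3.35-fold higher (2.98 ± 0.22; adjusted p = 4.1e-06) and lay under the floor in all 8 other arrays.

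All 4 subunits of the phagocyte NADPH oxidase, which makes superoxide, were higher in suffix A, by unequal amounts. Cybb, its catalytic membrane subunit, stood at 11.52, 10.52, 10.23 and 10.06 in scramble 1 and 2 and miR-34a 1 and 2. In the rest it read 6.32 in scramble 3, 5.33 in miR-34a 3, 7.66, 5.86 and 8.08 in miR-21 1, 2 and 3, and 5.92, 5.91 and 6.13 in miR-324 1, 2 and 4, and the difference was 27.0-fold (4.76 ± 0.50; adjusted p = 6.6e-05). The cytosolic subunits Ncf4 and Ncf1 were 5.24-fold and 4.32-fold higher (adjusted p = 0.0025 and 0.0031), or 4.73-fold and 4.29-fold with 1 of the third arrays held at the floor; Ncf4 did not pass without scramble 3 nor Ncf1 without miR-34a 3 (adjusted p = 0.064 and 0.087). Cyba, the partner of Cybb in the membrane and a gene active in many cell types, lay above the floor in all 12 arrays and was only 2.07-fold higher (adjusted p = 0.027). It passed in 1 of the 6 fits without 1 array, that without miR-34a 2.

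Lysosomal and antimicrobial genes held the largest difference of the set. Lyz2, the lysozyme of myeloid cells (chr10:117277541-117282272, GRCm38.p6), stood at 14.08 and 13.98 in scramble 1 and 2 and at 14.03 and 13.60 in miR-34a 1 and 2. It read 7.20 in scramble 3, 5.58 in miR-34a 3, 10.69, 9.83 and 10.85 in miR-21 1, 2 and 3, and 5.03, 6.15 and 6.17 in miR-324 1, 2 and 4. As for Spi1, 3 levels did not overlap. The suffix A arrays were 185-fold above the third arrays (7.53 ± 0.36; adjusted p = 3.2e-07). Mpeg1, a pore-forming protein of macrophages, read 11.02, 10.84, 10.96 and 11.42 in the suffix A arrays, in the same order as above. It read 6.17 in scramble 3, 4.54 in miR-34a 3, 6.99, 5.88 and 7.21 in miR-21 1, 2 and 3, and 4.10, 4.26 and 4.85 in miR-324 1, 2 and 4. Mpeg1 was 52.2-fold and Ctss, the protease cathepsin S, 49.2-fold higher (5.71 ± 0.36 and 5.62 ± 0.32; adjusted p = 1.8e-06 and 7.5e-07), or 40.1-fold and 48.3-fold with miR-34a 3 held at the floor. Ctss read 8.20, 7.38 and 7.56 in miR-21 1, 2 and 3 and 4.70 to 5.89 in the 5 remaining arrays without suffix A. Laptm5, a lysosomal membrane protein of blood cells, was 11.3-fold higher (adjusted p = 3.7e-06).

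Of the leukocyte surface and actin genes, Cd53, a tetraspanin, read 10.90, 10.88, 10.88 and 10.77 in scramble 1 and 2 and miR-34a 1 and 2. The other arrays gave 5.86 in scramble 3, 3.23 in miR-34a 3, 6.35, 5.71 and 6.17 in miR-21 1, 2 and 3, and 3.99, 4.63 and 5.05 in miR-324 1, 2 and 4, a difference of 79.5-fold (6.31 ± 0.30; adjusted p = 3.2e-07). The value of miR-34a 3 is below that array's floor of 5.30, and held at the floor it leaves 38.8-fold. Cd84, an adhesion receptor of the SLAM family, was 10.7-fold higher (adjusted p = 8.3e-06), and Coro1a, a leukocyte coronin, 4.06-fold (adjusted p = 5.3e-04; 0.076 without miR-34a 3), or 3.06-fold with miR-34a 3 held at the floor. Lcp1, the actin-bundling plastin of leukocytes, lay above the floor in all 12 arrays, at 9.42 to 12.59. It was 2.53-fold higher in suffix A (adjusted p = 0.011), and without scramble 3 the adjusted p was 0.46. Its lowest values were 9.50 and 9.42 in miR-21 1 and 2; miR-21 3, at 10.36, lay beside miR-324 2 at 10.33 and scramble 3 at 10.43, and miR-34a 3 read 11.68.

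Receptors divided into some that followed the suffix and some that did not. C3ar1, a receptor for a complement fragment, read 9.62, 10.06, 9.42 and 9.97 in the suffix A arrays and 5.03 to 5.85 in the other 8. C3ar1 and C5ar1, another such receptor, were at least 22.6-fold and 4.64-fold higher (4.71 ± 0.26 and 3.75 ± 0.46; adjusted p = 6.6e-07 and 2.3e-04). Mrc1, the mannose receptor, stood at 9.67, 9.99, 9.65 and 10.12 in scramble 1 and 2 and miR-34a 1 and 2 against 7.55 to 8.47 in the other 8 arrays, a 3.66-fold difference (adjusted p = 6.2e-04; 0.060 without miR-34a 3). The 6 genes that did not pass were Cd14, Cd163, Cx3cr1, P2ry12, P2ry6 and Irf8. Cd163, a haemoglobin scavenger receptor, read 4.13 to 5.24, and Cx3cr1, the fractalkine receptor of microglia and monocytes, 3.52 to 5.63; each lay above the floor in 1 array. P2ry12, an ADP receptor of microglia, read 4.82 to 6.64 and was highest in miR-21 2. P2ry6, a UDP receptor, was higher in each suffix A array than in scramble 3 and miR-34a 3 but did not pass (0.91 ± 0.33, limma adjusted p = 0.11). It lay under the floor in scramble 3, miR-34a 3 and miR-34a 2, and with those values held at the floor the difference was −0.059.

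Cd14, the coreceptor for lipopolysaccharide, had a pattern of its own. It read 7.34, 7.33 and 8.23 in scramble 1, 2 and 3. After miR-34a the values were 7.07, 6.77 and 5.13, after miR-21 5.18, 4.99 and 6.90, and after miR-324 6.06, 7.02 and 7.51. The highest value was in scramble 3, where most of the set was low, and the suffix A arrays differed from the third arrays by 0.45 ± 0.50 (adjusted p = 0.66).

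**Figure D2:**
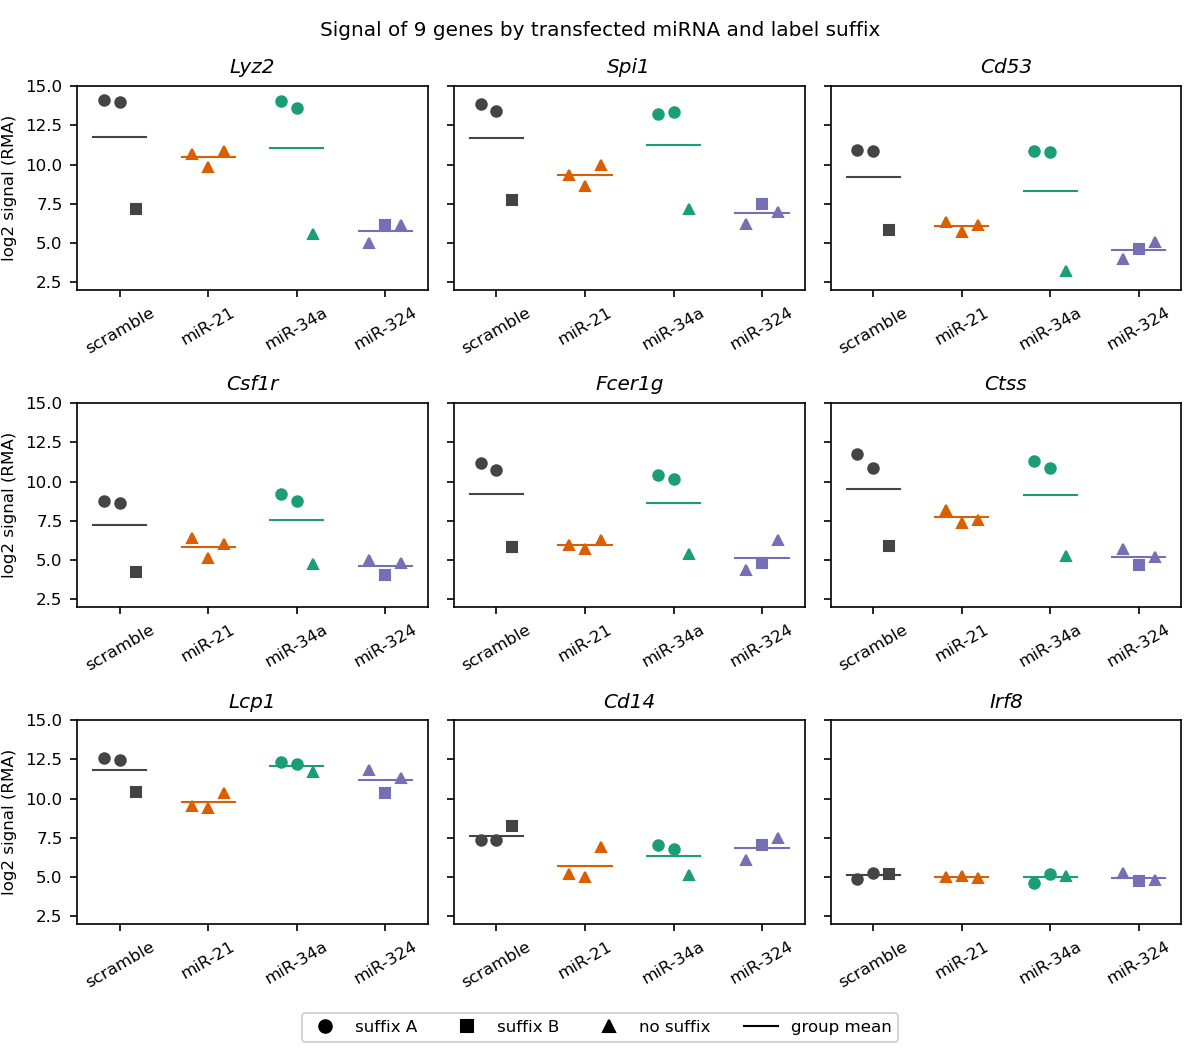
Log2 signal (RMA) of 9 of the genes in each array, by transfected miRNA (colour and position) and label suffix (symbol), with group means as lines. Lyz2 and Spi1 show 3 separate levels, Csf1r, Cd53, Fcer1g and Ctss are high in the suffix A circles, and Lcp1, Cd14 and Irf8 follow other patterns.

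Promoters were compared because so many of these genes were high in the same arrays. RefSeq windows of 300 bases, from 250 before to 50 after a gene's start on GRCm38.p6, were given for 26 of the 34 genes, 22 of them higher in suffix A. Both strands were searched for GAGGAAGT, a core bound by PU.1, for its first part GAGGAA, for the composite element of PU.1 and IRF factors, for the interferon-stimulated response element, for TTGCNNAA of C/EBP and for TGTGGTT of RUNX factors. Every match of the full core also holds its first part. That first part stood in 12 of the 26 genes (46.2%) and in 31.3% of all 27025 genes with a window, and the 12 were all among the 22 that were higher. The longer GAGGAAGT stood in Ctss and Cd53 (7.69%, against 3.69% of all genes). The composite stood in Cybb and Fcgr2b (7.69%, against 3.16%) and the interferon element in Aif1, Ctss, Cybb and Ncf1 (15.4%, against 3.99%). C/EBP and RUNX letters stood in 11.5% and 7.69% of the members and in 12.2% and 6.09% of all genes. These are matches of letters, not binding sites.

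The windows of Cd53, Ctss and Cybb are shown as 3 genes higher in suffix A with PU.1 letters, and that of Cx3cr1 as a gene above the floor in 1 array only, scramble 2, that holds none of the letters searched. Each is on the gene's own strand, with matches in capitals.
Cd53, chr3:106790100-106790399, minus strand: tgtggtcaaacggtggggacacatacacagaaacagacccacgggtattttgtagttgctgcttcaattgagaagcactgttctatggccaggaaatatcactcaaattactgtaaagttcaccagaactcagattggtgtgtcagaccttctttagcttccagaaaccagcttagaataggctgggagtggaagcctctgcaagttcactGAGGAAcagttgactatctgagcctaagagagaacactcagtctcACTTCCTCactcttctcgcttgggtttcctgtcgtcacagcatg
Ctss, chr3:95526536-95526835, plus strand: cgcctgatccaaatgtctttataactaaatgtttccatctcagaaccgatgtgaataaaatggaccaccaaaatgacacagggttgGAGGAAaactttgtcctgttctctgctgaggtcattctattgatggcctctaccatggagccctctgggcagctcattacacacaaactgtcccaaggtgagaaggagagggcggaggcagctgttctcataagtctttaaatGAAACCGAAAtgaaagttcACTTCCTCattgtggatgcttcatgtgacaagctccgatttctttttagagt
Cybb, chrX:9469275-9469574, minus strand: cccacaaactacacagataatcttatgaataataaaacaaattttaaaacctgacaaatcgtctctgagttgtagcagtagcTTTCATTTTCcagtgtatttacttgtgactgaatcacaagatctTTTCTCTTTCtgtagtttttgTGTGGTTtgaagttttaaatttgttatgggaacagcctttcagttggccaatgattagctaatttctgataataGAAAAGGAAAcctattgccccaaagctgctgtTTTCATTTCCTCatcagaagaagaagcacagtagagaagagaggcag
Cx3cr1, chr9:120068247-120068546, minus strand: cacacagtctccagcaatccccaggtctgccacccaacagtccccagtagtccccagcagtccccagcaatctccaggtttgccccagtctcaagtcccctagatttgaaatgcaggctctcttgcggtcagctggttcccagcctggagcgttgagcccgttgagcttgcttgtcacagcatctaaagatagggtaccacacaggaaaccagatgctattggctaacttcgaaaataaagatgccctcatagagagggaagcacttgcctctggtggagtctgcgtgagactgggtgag
The ACTTCCTC run, the reverse complement of GAGGAAGT, lies 7 to 14 bases into the transcribed part of Cd53 and straddles the start of Ctss. In Cybb the composite, read on the opposite strand, covers bases 4 to 13 after the start and overlaps a GAGGAA match.

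Many other macrophage genes, outside the set, were higher in the suffix A arrays too, though not all. Against the third arrays 10 of 18 measured genes of macrophage identity rose, 2 fell and 6 did not pass. The median difference was 2.18, and 8.12% of all probes rose and 4.22% fell. Folr2, Cbr2 and Cd209f lay under the floor in all 6 arrays compared. With values under the floor held at it, F13a1, Stab1 and Lyve1 differed by 0.29, 0.12 and −0.34 on the log2 scale. C1qb and C1qa, chains of the complement initiator C1q, were at least 35.0-fold and 18.1-fold higher (adjusted p = 5.9e-08 and 1.0e-06). The scavenger receptor Msr1 was at least 11.4-fold higher (adjusted p = 3.4e-06) and the chemokine Pf4 55.3-fold (adjusted p = 1.0e-06), or 51.8-fold with 1 of the third arrays held at the floor. The 2 that fell were Mertk, a receptor for dying cells, and its ligand Gas6 (−1.76 and −1.39; adjusted p = 0.0069 and 0.0082). Microglia genes did not share the pattern as a list. Of 8 microglia genes 2 passed, both higher. Olfml3 lay above the floor (1.91; adjusted p = 0.0034), and P2ry13 lay under it in all 6 arrays compared (1.35; adjusted p = 0.0029), while Tmem119 and Sall1 differed by 0.18 and 0.25 (adjusted p = 0.72 and 0.69).

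Receptor signalling and pattern recognition genes changed in part, where 8.12% of all probes rose and 4.22% fell. Of 12 genes of signalling below these receptors 6 rose and 1 fell, among them the PI3-kinase adaptor Pik3ap1 and the exchange factor Vav1, higher by at least 2.40-fold and 1.83-fold (2.52 and 1.77; adjusted p = 4.2e-05 and 3.0e-04), and the lipid phosphatase Inpp5d, lower (−2.30; adjusted p = 3.6e-05). Of 13 toll-like receptor genes 6 rose and 2 fell. Cd180 and Tlr13 rose by at least 17.4-fold and 9.13-fold and Tlr7 by 9.75-fold (adjusted p = 1.9e-06, 3.1e-06 and 1.4e-04), and Tlr4 and Tlr3 fell (−1.15 and −1.38; adjusted p = 0.0085 and 0.010). Among 12 myeloid transcription factors other than Spi1 and Irf8, Ikzf1 and Runx1 rose (2.11 and 0.80; adjusted p = 6.8e-04 and 0.031) and Fli1, also an endothelial factor, fell (−1.36; adjusted p = 0.0017).

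The ligands of the Csf1r receptor did not pass, though Csf1 was higher in suffix A in the mean. Csf1 read 14.70 to 17.12 in the 12 arrays, and Il34 read 6.55 to 8.32; against the third arrays they differed by 0.86 ± 0.32 and −0.25 ± 0.22 (adjusted p = 0.11 and 0.57). Of 11 growth factors and recruiting ligands 2 rose and 1 fell, where 8.12% of all probes rose and 4.22% fell. These were the chemokines Ccl3 and Ccl7, higher (3.46 and 2.07; adjusted p = 6.7e-06 and 0.0011), and Cx3cl1, the ligand of Cx3cr1, lower (−1.17; adjusted p = 0.043).

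Neutrophil and monocyte genes were higher in the same 4 arrays. Of 9 measured neutrophil genes 6 rose and 0 fell. Ngp, a neutrophil granule protein, read 12.51 and 10.13 in scramble 1 and 2, 11.36 and 9.94 in miR-34a 1 and 2, and 3.14 to 4.77 in the other 8 arrays, a difference of at least 52.5-fold from the third arrays (adjusted p = 5.7e-06). Retnlg and S100a9, further neutrophil products, were at least 15-fold and 34.0-fold higher (adjusted p = 2.0e-07 and 6.5e-05), and S100a8 47.9-fold (adjusted p = 8.7e-05), or 44.8-fold with 1 of the third arrays held at the floor. Elane, the elastase of early granulocytes, was at least 22.3-fold and Mpo, their peroxidase, 19.5-fold higher (adjusted p = 1.6e-06 and 3.6e-05). They are 2 of 5 that rose among 7 other oxidase and granule genes. Of 7 monocyte genes 4 rose. Ly6c2 was 4.94-fold higher (adjusted p = 0.0029). Chil3, Plac8 and Ccr2 were higher by at least 12.2-fold, 2.05-fold and 1.11-fold, Ccr2 with scramble 2 under the floor as well (5.66, 2.49 and 1.92 on the log2 scale; adjusted p = 7.3e-06, 3.5e-05 and 8.0e-04). How much of each shared myeloid gene came from which cell type was not tested.

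Lymphoid, dendritic and mast cell genes did not rise with them as lists. In the same comparison 8.12% of all probes rose and 4.22% fell. Of 11 T and NK cell genes 0 passed, and their median signal was 3.67 to 4.91 in the 12 arrays; Il7r and Cd4 differed by 1.25 and 0.64 (adjusted p = 0.10 and 0.19). Of 8 dendritic cell genes 0 passed as well. Of 7 B cell genes 1 passed, Cd79b, under the floor in all 6 arrays compared (0.86; adjusted p = 0.037), and of 8 mast cell genes 1 fell (Kit, −2.03; adjusted p = 5.8e-04).

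Other cell types also differed between these arrays, where 8.12% of all probes rose in suffix A and 4.22% fell. Of 11 endothelial genes 10 fell and 0 rose in suffix A, and their median signal was 9.59 to 9.98 in the suffix A arrays, 8.42 to 9.57 in miR-21 and 11.92 to 13.82 in the 5 remaining arrays. All 8 sensory neuron genes rose, with medians of 12.58 to 13.32 in suffix A and 9.04 to 11.26 elsewhere. Of 9 fibroblast genes 4 rose, with medians of 10.08 to 10.44 in suffix A, 8.27 to 9.92 in miR-21 and 6.50 to 7.79 in the 5 remaining arrays. Prl, the pituitary hormone prolactin, stood at 14.26 to 15.17 in scramble 3 and the miR-324 arrays and at 3.37 to 4.83 in the other 8. Of 12 pan-neuronal genes 7 and of 7 satellite glia genes 3 rose in suffix A against the third arrays, and of 8 pituitary genes 5 fell. Of 7 myelinating Schwann cell genes 2 rose and 2 fell. The third arrays also differed from each other. The pan-neuronal median was 13.2 in scramble 3 and 10.0 in miR-34a 3, and the Schwann cell median 5.52 and 9.16. The part of these differences in the macrophage result was not tested.

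**Figure D3:**
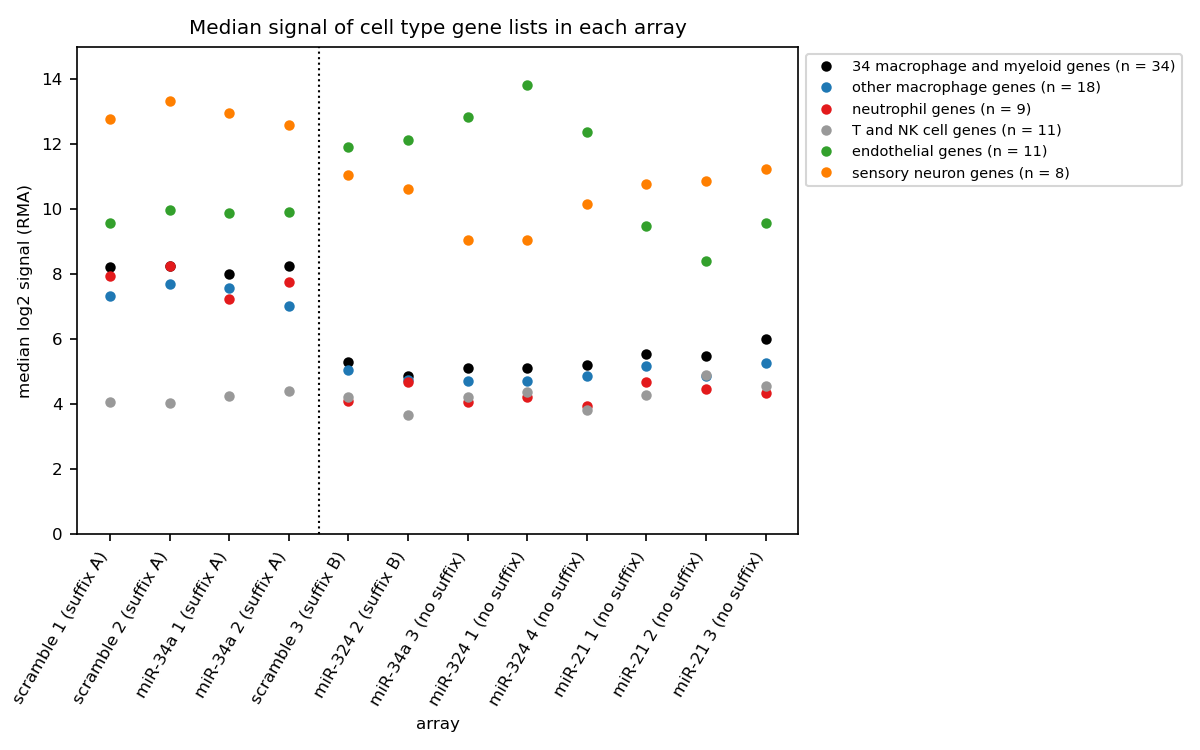
Median log2 signal (RMA) of 6 gene lists in each array, with the 4 suffix A arrays left of the dotted line. The 34 genes lie at 8.02 to 8.26 in suffix A and at 4.86 to 6.00 elsewhere, and neutrophil and other macrophage genes share the step while T and NK cell genes stay under 5.

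Within suffix A, miR-34a and scramble could be compared among arrays that all held high macrophage signal. Of the 34 genes 0 passed, as did 0 of 19572 probes (0%), with 1 gene and 1.24% of probes at an unadjusted p under 0.05. The 34 differences were at most 0.88 on the log2 scale, with a median of −0.23. The arrays of the 2 groups did not overlap, miR-34a lower, for 10 genes and 15.7% of probes, and higher for 3 genes and 14.3%, with 2 arrays a side. The 6 with the largest differences, none past the threshold, were Cybb, Itgb2, Cx3cr1, Fcer1g, Cyba and Fcgr3 (−0.88, −0.84, −0.71, −0.65, −0.63 and −0.48). Itgb2 was the gene with the unadjusted p, at 6.51 and 6.69 in miR-34a 1 and 2 against 7.40 and 7.47 in scramble 1 and 2 (−0.84 ± 0.25, 95% interval −1.38 to −0.29; adjusted p = 1). For Csf1r the interval was −0.52 to 1.11, and for Cybb, the largest difference, −2.14 to 0.39. For 8 of the 34 genes the interval lay within a 2-fold change either way, so larger differences are not excluded by the data for the other 26. Over all 3 arrays of each group 0 of 34 genes and 0 of 19572 probes (0%) passed between miR-34a and scramble, with 1 gene, Cd14, and 1.46% of probes at an unadjusted p under 0.05. Cd14 was also the 1 gene whose miR-34a arrays all lay below scramble (2.31% of probes; 3.49% lay above). Cd14, Cd53, Cybb, Itgb2, Tyrobp and Lyz2 had the largest differences (−1.31, −0.92, −0.91, −0.71, −0.71 and −0.68; adjusted p = 1.0). The median difference there was −0.24, and without miR-34a 3 or scramble 3, the low arrays, it was 0.74 or −1.05. Without the 4 suffix A arrays, which leaves 1 array of each group, it was −0.40, and 0 genes and 1 probe passed with the spread of the other groups.

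After miR-21 the genes had lower means than after scramble, and 0 of 34 passed, where 1.04% of all probes did (0.685% higher and 0.358% lower). At an unadjusted p under 0.05 there were 12 genes and 16.6% of probes. The median difference was −1.56, with 33 of 34 lower in the mean. All miR-21 arrays lay below all scramble arrays for 5 genes, Fcgr3, Lcp1, Tyrobp, Cd14 and Fcgr1, and for 8.75% of probes. They lay above for 1, P2ry12, and for 16.9% of probes. The largest differences, none past the threshold, were those of Itgam, Fcgr3, Fcer1g, Cd53, Mpeg1 and C3ar1 (−3.54, −3.47, −3.27, −3.14, −2.65 and −2.57; adjusted p from 0.20 to 0.42). The scramble group held 2 arrays of suffix A and the miR-21 group none. Without the 4 suffix A arrays, miR-21 against scramble 3 alone, the median difference was 0.38, and Lyz2 was higher after miR-21 (9.56-fold; adjusted p = 0.013; 3.28% of probes passed), with scramble 3 assumed to vary like the other groups. The 2 groups share no suffix, so a fit with the suffix as a fixed block links them only through miR-34a and miR-324. It takes the suffix differences as equal in all groups. In that fit the median was 0.35, and 3 genes and 3.49% of probes passed. Lyz2 and Spi1 were then higher (4.28 and 2.12; adjusted p = 3.4e-04 and 0.029) and Lcp1 lower (−2.06; adjusted p = 0.011). Lcp1 also passed without scramble 3 (−2.77; adjusted p = 0.029; 0.399% of probes passed), and was the gene with the smallest p in the comparison of all arrays (−2.07 ± 0.54; adjusted p = 0.089).

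After miR-324 the picture was similar, and the comparison used the same scramble arrays. Of the 34 genes 0 passed, as did 0 of all probes (0%), with 22 genes and 14.7% of probes at an unadjusted p under 0.05. The median difference was −2.22, and for 15 genes all miR-324 arrays lay below all scramble arrays, as they did for 7.30% of probes; above them lay 0 genes and 12.6% of probes. The next largest differences after Lyz2, none past the threshold, were those of Mpeg1, Spi1, Cd53, Ctss and Fcgr3 (−4.94, −4.77, −4.66, −4.29 and −4.09; adjusted p from 0.31 to 0.32). Lyz2 had the largest difference, at 5.03, 6.15 and 6.17 in miR-324 1, 2 and 4 against 14.08, 13.98 and 7.20 in scramble 1, 2 and 3 (−5.97 ± 2.06; adjusted p = 0.31). Without scramble 3, when scramble is suffix A alone, 11 of the 34 genes were lower, as were 1.32% of probes, Itgb2 and Fcgr3 with the smallest p (−3.69 and −5.65; adjusted p = 0.031 and 0.037). Without the 4 suffix A arrays the median was −0.27 and 0 genes passed. In suffix B, which holds 1 array of each, the median of the 34 genes was 4.86 in miR-324 2 and 5.31 in scramble 3.

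**Figure D4:**
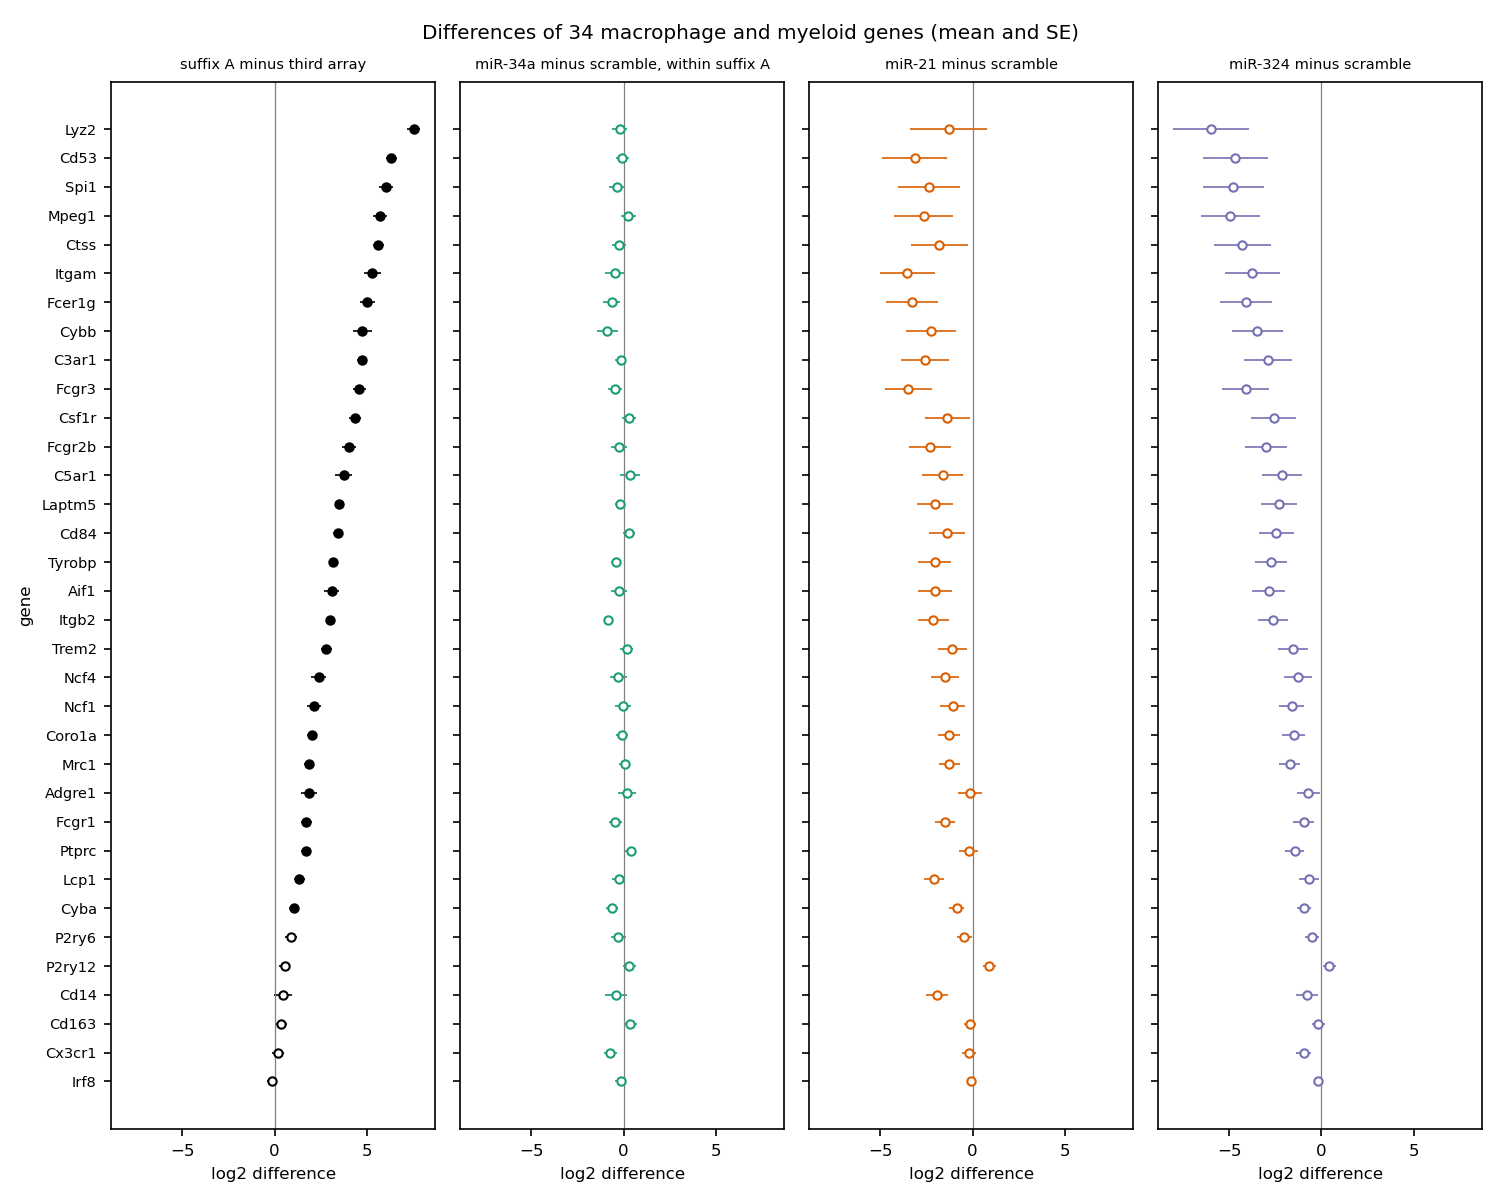
Log2 differences with standard errors for the 34 genes in 4 comparisons from limma; filled points passed an adjusted p under 0.05 and open points did not. The 28 filled points are all in the suffix comparison, differences within suffix A are at most 0.88, and the bars for miR-21 and miR-324, from the spread shared by all 4 groups, are the widest for Lyz2.

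Between miR-21 and miR-324, neither of which has a suffix A array, a smaller difference was seen. In the fit of all 12 arrays 0 of 34 genes passed, against 2.46% of probes (1.14% higher and 1.31% lower after miR-324), with 3 genes and 14.7% of probes at an unadjusted p under 0.05, and the median was −0.53 for miR-324 minus miR-21. For 13 genes all miR-324 arrays lay below all miR-21 arrays and for 1, Fcgr1, above; of all probes 13% lay below and 8.40% above. The largest differences were those of Lyz2, Ctss, Spi1, Mpeg1 and Cd53, lower in the mean, and of Lcp1, higher (1.39; adjusted p = 0.25). Fitted on these 6 arrays alone, 7 genes and 3.47% of probes were lower after miR-324. These were Lyz2 (−4.67, 25.5-fold, or 21.8-fold with miR-324 1 held at the floor; adjusted p = 2.4e-04), Ctss (−2.50; adjusted p = 0.0018), Mpeg1 (−2.29; adjusted p = 0.0060), Spi1 (−2.42; adjusted p = 0.0076), Cd53, Cd84 and Ptprc (−1.52, −1.06 and −1.25; adjusted p = 0.024, 0.030 and 0.034). Mpeg1, Cd53 and Ptprc lay under the floor in all 3 miR-324 arrays, which bounds their differences at 2.24-fold, 1.49-fold and 1.47-fold or more. Ctss read 4.70 and 5.22 in miR-324 2 and 4, under the floor, and 5.71 in miR-324 1, at that array's floor. Its difference of −2.50 therefore rests in part on values under the floor. With the suffix as a fixed block the same 7 were lower and Lcp1 was higher (1.84; adjusted p = 0.0012), where 4.06% of probes were lower and 2.86% higher. Not all macrophage genes took part, since Fcer1g, Itgam, Itgb2, Aif1 and C5ar1 in the miR-21 arrays overlapped the miR-324 arrays or lay under the floor. Set against the 5 other arrays without suffix A, the 3 miR-21 arrays were higher than all of them for 6 of the 34 genes (17.6%), Csf1r, Adgre1, Lyz2, Ctss, Cd84 and Spi1, where 7.73% of probes were. The gap was 2.63, 1.49 and 0.89 for Lyz2, Ctss and Spi1, but only 0.01, 0.08 and 0.27 for Cd84, Csf1r and Adgre1. In miR-21 2, Csf1r and Adgre1 read 5.11 and 5.45, under that array's floor of 5.80.

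The lists of other cells gave these values for the same 6 arrays. Of 18 macrophage identity genes and 9 neutrophil genes 0 passed between miR-324 and miR-21 in the fit of all arrays (medians −0.24 and 0.06). Of 11 endothelial genes 6 were higher after miR-324, and of 7 myelinating Schwann cell genes 3 were lower. Of all probes 1.14% were higher and 1.31% lower. Of 9 fibroblast genes 2 and of 7 satellite glia genes 1 were lower. Of 8 pituitary genes 1, of 8 mast cell genes 1 and of 12 receptor signalling genes 1 were higher. Of 12 myeloid transcription factors 1 was higher and 1 lower. The part of these lists in the difference of Lyz2 and its companions was not tested.

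Against miR-34a the result turned with the array left out. Of the 34 genes 0 passed between miR-34a and miR-21 (0.158% of probes, 0.0869% higher and 0.0715% lower; 2 genes and 11.3% unadjusted). The probes were 17 higher and 14 lower, or 21 and 11 after centring each array. For 1 gene, Lcp1, the miR-34a arrays lay above all miR-21 arrays (6.16% of probes; 10.9% lay below). The largest differences, none past the threshold, were those of Fcgr3, Itgam, Fcer1g, C3ar1, Lcp1 and Mpeg1 (3.04, 3.02, 2.69, 2.50, 2.31 and 2.28; adjusted p from 0.13 to 0.61). Without miR-34a 3, 5 genes and 1.27% of probes were higher after miR-34a, Cd53, Fcgr3, Mpeg1, Lcp1 and Mrc1. Without the 4 suffix A arrays miR-34a 3 is alone in its group and was assumed to vary like the others. In that fit 3 genes and 1.09% of probes were lower than after miR-21, Lyz2 (−4.88; adjusted p = 0.0032), Cd53 (−2.85; adjusted p = 0.015) and Ctss (−2.46; adjusted p = 0.032); Cd53 and Ctss lay under the floor in miR-34a 3. Between miR-34a and miR-324 0 genes passed (0% of probes; 17 genes and 13% of probes unadjusted). The miR-34a arrays lay above all miR-324 arrays for 4 genes, Fcgr3, Cd84, Ptprc and Cx3cr1 (7.81% of probes; 9.25% lay below). The largest differences, none past the threshold, were those of Lyz2, Mpeg1, Spi1, Ctss, Cd53 and Fcgr3 (5.29, 4.57, 4.33, 3.92, 3.74 and 3.66; adjusted p from 0.33 to 0.39). Without miR-34a 3, the low array, 21 genes and 2.56% of probes were higher, Lyz2 by 262-fold, or 224-fold with miR-324 1 held at the floor (adjusted p = 0.038). Without the suffix A arrays the median of that comparison was −0.03 and 0 genes passed.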

How the data were processed

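The authors' deposited values are log2 signals of Clariom S Mouse arrays, for which the submitters' processing notes name Transcriptome Analysis Console 4.0 and RMA. This method corrects background and brings arrays to a common distribution, so a change in total signal is not visible, and differences near the floor are understated. A platform table named 19572 of 22206 probes with 1 symbol each; all 34 members matched RefSeq by identifier, and 1 probe was taken per symbol, that with the highest mean.

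A mean per group was fitted across the 12 arrays (limma 3.58.1 under R 4.3.3, moderated statistics; 8 residual degrees of freedom), and 7 means of group and suffix for the suffix comparisons (5 degrees of freedom). All adjusted p-values are from limma, two-sided, Benjamini-Hochberg over the 19572 probes. The fits were tested on simulated data. The 34 genes, the other lists and the tests were chosen with earlier results of these data known, and the comparison without the 4 suffix A arrays and the folds with values under the floor held at it were added after seeing the data. Every member is described, with the 6 largest differences where fewer than 6 passed. Of other lists up to 4 genes past the threshold are named, else the 2 brightest; genes named beyond that were chosen after their values were seen. Names follow the replicate number in the labels; scramble 3 is named by its order number, since its own number repeats 1.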

Additional observations from a re-analysis of the deposited data

How the results depend on the processing

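The count of 28 genes higher in suffix A was also 28 after quantile normalization again, centring, a variance prior with a trend or an unadjusted p under 0.05 with 2-fold; among the 20 members brighter than the median probe 19 passed and the median was 4.48. Without 1 array the counts were 22 to 28 and the medians 2.87 to 3.08. At the unadjusted threshold with 2-fold, members passing numbered 10, 1 and 20 for miR-21, miR-34a and miR-324 against scramble. Of all probes 7.25%, 0.163% and 5.86% passed there. Members numbered 2, 3 and 16 for miR-34a against miR-21, miR-324 against miR-21 and miR-34a against miR-324, beside 3.72%, 7.15% and 4.44% of probes. With the suffix as a fixed block members numbered 3 for miR-21 against scramble, which share no suffix (3.49% of probes). For miR-34a and miR-324 against miR-21 they numbered 5 and 8 (5.13% and 6.92%). The medians were then 0.35, −0.22, −0.53 and −0.027 for miR-21 and miR-324 against scramble and miR-34a against miR-21 and miR-324. Without the suffix A arrays the medians were 0.38, −0.27, −0.56 and −0.027, with 1 and 3 members for miR-21 against scramble and miR-34a against miR-21. The fit of only the groups compared gave 7 for miR-324 against miR-21 (5.33% of probes). The replicate block gave 1 there, Ptprc (2.56% of probes), and changed no other member call. Deviations of same-numbered arrays correlated at 0.31, 0.36 and 0.48 for miR-34a and scramble, whose first 2 pairs share suffix A and with no shared label number for the pair left, and at −0.41 to 0.33 elsewhere. The suffix and a pairing cannot be told apart here.

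Without 1 array the members passing were 0 to 1, 0 and 0 to 11 for miR-21, miR-34a and miR-324 against scramble. Of all probes 0.0562% to 0.414%, 0% and 0% to 1.96% passed in those fits. The members were 0 to 5, 0 and 0 to 21 for miR-34a against miR-21, miR-324 against miR-21 and miR-34a against miR-324. Beside them 0.0102% to 2.74%, 0.439% to 2.05% and 0% to 4.09% of probes passed.

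All probes passing moved more. For miR-21 against scramble (204) they were 310 among bright probes, 1419 unadjusted with 2-fold, 906 in the 2 groups alone, 684 with the suffix block, 129 with the replicate block, 642 without suffix A and 11 to 81 without 1 array. For miR-34a against miR-21 (31, 17 higher and 14 lower) they were 47, 728, 23, 1004, 11, 324 and 2 to 537, and 21 higher and 11 lower with centring. For miR-324 against miR-21 (481) they were 1400 unadjusted, 1043 in the 2 groups, 1354 with the suffix block and 86 to 402. The comparisons with 0 gave 32, 1146 and 869 unadjusted for miR-34a and miR-324 against scramble and miR-34a against miR-324, up to 383 and 801 without 1 array for the last 2, and 49 within suffix A. The suffix comparison (2414) gave 809 to 2118 without 1 array, 809 without miR-34a 3. Quantile normalization moved the median of all genes after miR-21 from 0.13 to 0.03. The causes were not tested.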

Other observations

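Lysosomal genes, which many cell types share, passed in few cases. Of 11 lysosomal genes 2 were higher in suffix A against the third arrays, the proteases Lgmn and Ctsb (2.02 and 0.98; limma adjusted p = 0.0035 and 0.029), and Lamp1, a membrane protein of all lysosomes, was lower (−1.09; adjusted p = 0.040). Their median signal was 13.59 to 14.94 in the 12 arrays. In that comparison 8.12% of all probes were higher and 4.22% lower, so these few calls are not read as a change of the list. Of 9 genes of lipid-associated macrophages 2 were higher and 2 lower. Apoe, a lipid carrier that satellite glia also make, read 13.85 to 14.67 in the suffix A arrays, 8.17 to 10.97 elsewhere, and was 38.7-fold higher (adjusted p = 3.4e-06). Gpnmb, a glycoprotein of phagocytes and pigment cells, was 13.8-fold higher (adjusted p = 4.5e-06), and Lgals3, the lectin galectin-3, 3.33-fold lower (adjusted p = 0.0032). Ch25h, an enzyme that makes a cholesterol derivative, was 3.16-fold lower (adjusted p = 0.029).

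Among the suffix A arrays the 34 genes varied little. Their standard deviation over the 4 arrays had a median of 0.31, from 0.06 for Cd53 to 0.92 for C5ar1, and 27 were under 0.5. S100a8 varied more, at 12.81, 9.81, 10.88 and 10.37 in scramble 1 and 2 and miR-34a 1 and 2.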
